A study of Mus musculus with 16 samples.

Results

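This report describes 9 genes of the injured renal tubule in whole mouse kidney: Havcr1 (KIM-1), Lcn2 (NGAL), Spp1 (osteopontin), Clu (clusterin), Cp (ceruloplasmin), Dcdc2a, Vcam1, Cd44 and Tnfrsf12a (Fn14). The genes were listed by name as tubular injury genes and found in the count table by Ensembl ID, which placed 9 of its 40472 genes in the set. They were chosen with earlier results of these data known. All 9 passed the filter on low counts that left 13614 genes for testing. Havcr1, Lcn2 and Tnfrsf12a passed it only through the injured libraries, and not among the normal libraries alone. Sequencing of polyadenylated RNA was done on kidneys of male C57BL/6 mice, 12 weeks old by the labels, with no transgene or deletion named in any group. IRP mice underwent ischemia reperfusion, in which blood flow to the kidney is stopped and restored, and received PJ34, an inhibitor of poly(ADP-ribose) polymerases. IRV mice underwent ischemia reperfusion and received vehicle, NP mice were normal and received PJ34, and NV mice were normal and received vehicle. Each group has 4 libraries. The labels do not say that each replicate was a separate animal, so the p-values reflect only how these libraries vary, which may be technical variation. The day of collection is not in the labels. The study's text places these groups in its question about long-term effects of PJ34 after ischemia reperfusion.

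Tubular epithelium that has been injured by loss of blood flow loses part of its transport programme and switches on genes that are low or silent in the healthy kidney. KIM-1 is a membrane receptor that lets surviving tubular cells engulf dying neighbours, and NGAL is a secreted protein that binds iron-carrying siderophores. Both are used as markers of kidney damage in urine. Osteopontin and clusterin are secreted by stressed tubular cells, and VCAM-1 marks tubular cells that have failed to repair as well as activated endothelium.

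The depth of the libraries was uneven in a way that touches every comparison. NP and NV libraries were of similar depth, but their test shares its estimate of the spread with the other libraries. Totals ran from 4963638 to 6169748 counts in 6 libraries here called deep, IRP replicates 1 to 4 with IRV replicates 3 and 4. They ran from 973812 to 1659983 in the other 10, here called shallow, which are IRV replicates 1 and 2 with every NP and NV library. The sets also differed in make-up. Levels are given as CPM, counts scaled to library size. The summed CPM of 1909 olfactory, vomeronasal, taste and trace-amine receptor genes were 246 to 519 in deep libraries and 6439 to 11377 in shallow ones. The kidney markers of the proximal tubule were present in every library, with sums of 8932 to 24300 CPM. The injury results are therefore also given with the library set as a term of the fit, and IRV against NV also within the shallow libraries for the 9 genes.

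Stretches of sequence before 3 of the genes are shown, and 1 of the stretches holds a searched motif. They are from RefSeq on build GRCm38.p6, an older build than the GRCm39 named in the submitters' processing notes, and parts lying in annotated exons are not shown. Havcr1 is on the plus strand at chr11:46739973-46740060, ending 162 bases before an annotated start. Spp1 is on the plus strand at chr5:104434861-104435110, and Cp is on the plus strand at chr3:19956804-19957053, both reaching up to an annotated start. Capitals mark the match to AP-1, a motif bound by Fos and Jun.
Havcr1: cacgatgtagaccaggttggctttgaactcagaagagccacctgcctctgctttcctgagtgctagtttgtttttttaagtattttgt
Spp1: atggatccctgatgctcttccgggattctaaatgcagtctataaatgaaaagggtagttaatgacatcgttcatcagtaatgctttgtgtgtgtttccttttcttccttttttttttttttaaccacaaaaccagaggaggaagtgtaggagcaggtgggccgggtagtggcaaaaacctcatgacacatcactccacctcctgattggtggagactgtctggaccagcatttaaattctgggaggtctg
Cp: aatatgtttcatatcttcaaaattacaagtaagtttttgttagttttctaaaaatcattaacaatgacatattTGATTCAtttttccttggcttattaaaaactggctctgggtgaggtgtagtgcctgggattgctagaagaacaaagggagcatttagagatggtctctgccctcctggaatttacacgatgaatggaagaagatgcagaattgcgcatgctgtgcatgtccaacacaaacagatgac
The RefSeq promoter table held 7 of the 9 genes, in 11 windows of the 250 bases before a start. Both strands were searched for AP-1 (TGANTCA), STAT (TTCCNGGAA), NF-kB (GGGA and TTTCC around 1 free base) and HNF1 (GTTAAT and ATTAA around 1 free base). AP-1 was found in 1 of the 11 windows, 177 bases before the Cp start, as TGATTCA. Among all 32851 windows of that length, 6.75% held the AP-1 letters, 0.356% the NF-kB letters, 0.913% the STAT letters and 0.0609% the HNF1 letters. A match is a description of the letters and not of a bound site.

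After ischemia reperfusion, all 9 genes were higher in both treatments. The 9 were chosen with earlier results of these data known, so the all-gene shares below give scale and do not test the set. In IRP against NP kidneys 9 of 9 rose by edgeR's quasi-likelihood test at an adjusted p under 0.05, with a median log2 difference of 2.32 and a range of 1.27 to 4.62. Of all 13614 genes tested, 19.6% rose and 24% fell in IRP against NP, 43.6% in either direction, and the median log2 difference of all genes was -0.01. In IRV against NV kidneys 9 of 9 also rose, with a median log2 difference of 2.76 and a range of 1.14 to 4.34. There 15.9% of all genes tested rose, 11.1% fell and 27% moved in either direction, with a median of -0.03. Levels of IRP and NP libraries did not overlap for 8 of the 9 genes, where 19.6% of all genes tested were higher without overlap. Levels of IRV and NV libraries did not overlap for 9 of 9, against 15.1% of all genes. The plot of CPM by library shows these levels.

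**Figure D1:**
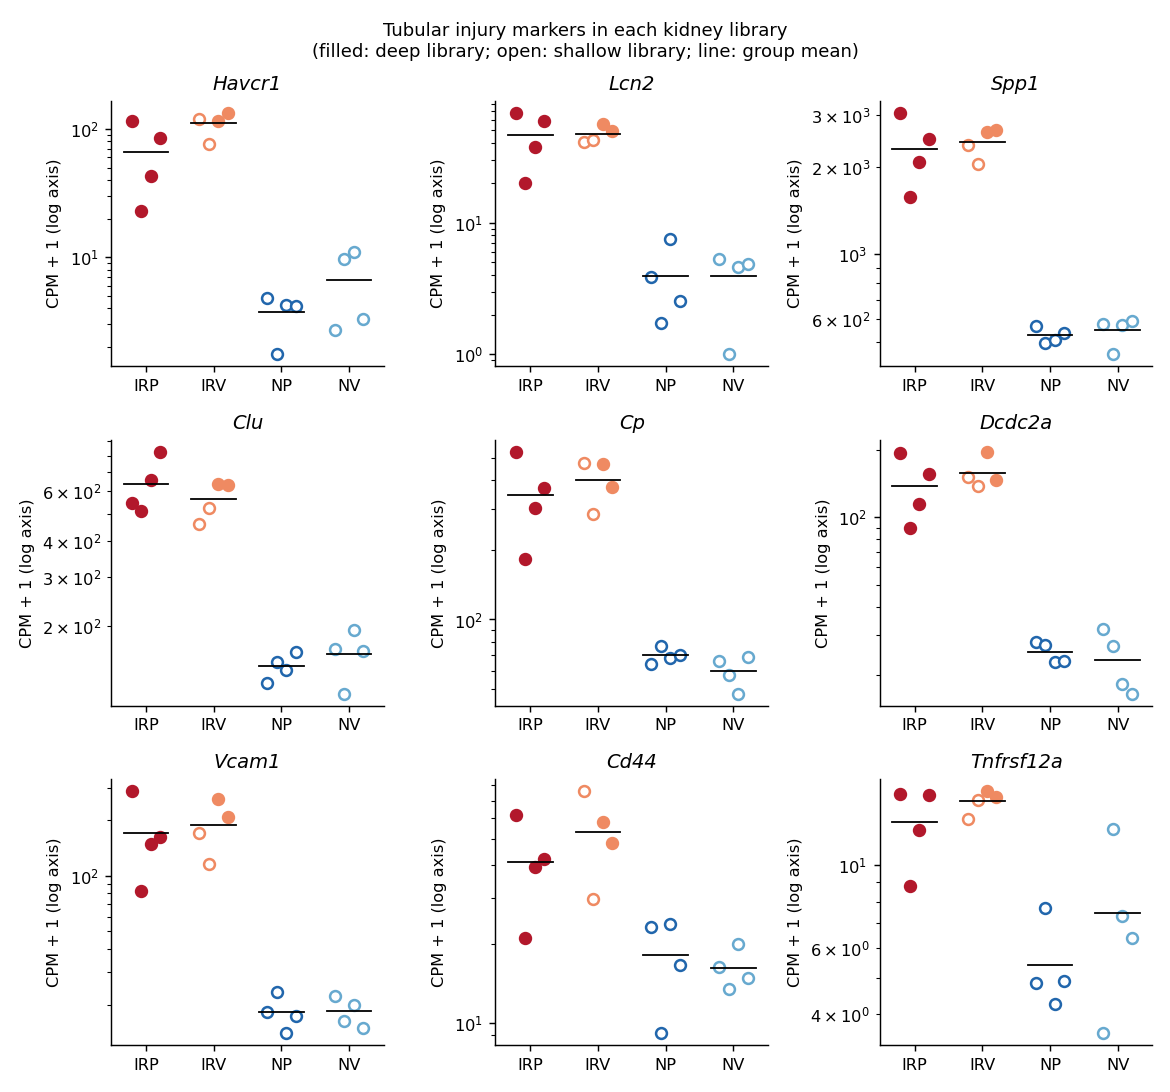
CPM + 1 (log axis) of each of the 9 genes in every kidney library, by group, with filled points for deep libraries, open points for shallow libraries and a line at the group mean. IRP libraries sit above NP libraries for every gene except Cd44, where IRP replicate 2 at 20.1 CPM lies among the NP libraries, and IRV libraries sit above NV libraries for all 9 genes.

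KIM-1 and NGAL, both used as urinary markers, had the 2 largest differences of the 9. Havcr1 (ENSMUSG00000040405.14) reached 114, 21.7, 41.7 and 83.3 CPM in IRP replicates 1 to 4, against 3.84, 0.744, 3.26 and 3.12 CPM in NP replicates 1 to 4. It reached 118, 76.0, 115 and 133 CPM in IRV libraries, against 1.71, 8.61, 9.90 and 2.32 CPM in NV libraries. Every injured library was above every normal one, and IRP replicate 2 was the lowest of the injured. The log2 difference was 4.62 ± 0.65 (SE) in IRP against NP (adjusted p = 7.83e-05, edgeR) and 4.34 ± 0.56 in IRV against NV (adjusted p = 4.43e-05, edgeR), or 24.6-fold and 20.3-fold. Lcn2 (ENSMUSG00000026822.15) had 66.9, 19.0, 36.4 and 57.6 CPM in IRP libraries, against 2.88, 0.744, 6.52 and 1.56 CPM in NP libraries. In IRV libraries it had 40.1, 41.3, 55.1 and 48.1 CPM, against 4.27, 0, 3.60 and 3.86 CPM in NV libraries. The injured and normal libraries were again apart, and IRP replicate 2 was again lowest among the injured. The log2 difference of Lcn2 was 4.08 ± 0.53 in IRP against NP (adjusted p = 4.64e-05, edgeR) and 3.95 ± 0.52 in IRV against NV (adjusted p = 6.02e-05, edgeR).

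The size of the Havcr1 and Lcn2 differences rests on very few reads in normal kidney. Havcr1 had 1 to 4 counts in NP libraries and 2 to 11 in NV libraries, while Lcn2 had 1 to 6 in NP libraries and 0 to 5 in NV libraries. In the same 8 normal libraries the sensory receptor genes named above averaged 4.53 to 6.23 counts each, with a 90th percentile of 10 to 13. Havcr1 and Lcn2 were at or below that percentile of their own library in 8 of 8 normal libraries and in 0 of 8 injured ones. Their levels in normal kidney were thus no higher than those of many receptor genes in the same libraries. By limma-voom, another test of the same counts, the adjusted p of Havcr1 was 0.174 in IRP against NP and 0.0502 in IRV against NV, and that of Lcn2 was 0.0983 and 0.107.

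The secreted proteins osteopontin, clusterin and ceruloplasmin had ample counts in every group and rose by smaller factors. Osteopontin is an acidic glycoprotein that binds integrins and calcium crystals. Spp1 (ENSMUSG00000029304.15) stood at 3052, 1569, 2066 and 2482 CPM in IRP libraries, against 569, 496, 510.0 and 538 CPM in NP libraries. It stood at 2365, 2037, 2631 and 2666 CPM in IRV libraries, against 578, 453, 572 and 588 CPM in NV libraries. Normal libraries lay close together and the lowest injured library was well above all of them. Spp1 differed on the log2 scale by 2.12 ± 0.18 in IRP against NP (adjusted p = 2.26e-06, edgeR) and 2.15 ± 0.18 in IRV against NV (adjusted p = 3.03e-06, edgeR). By p-value Spp1 ranked 8 of 13614 genes in IRP against NP and 4 in IRV against NV. Clusterin is a secreted chaperone that keeps unfolded proteins in solution. Clu (ENSMUSG00000022037.16) had 545, 512, 659 and 824 CPM in IRP libraries, against 125, 149, 139 and 162 CPM in NP libraries. In IRV libraries it had 459, 524, 635 and 628 CPM, against 166, 115, 193 and 162 CPM in NV libraries. Groups were apart in both comparisons, and for Clu the lowest injured library was IRV replicate 1. For Clu the log2 difference came to 2.14 ± 0.18 in IRP against NP (adjusted p = 2.25e-06, edgeR) and 1.82 ± 0.18 in IRV against NV (adjusted p = 6.4e-06, edgeR).

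Ceruloplasmin is a copper protein that oxidises iron as it leaves cells. Cp (ENSMUSG00000003617.17) had 528, 181, 302 and 371 CPM in IRP libraries, against 63.4, 75.9, 67.4 and 69.5 CPM in NP libraries. It had 475, 286, 469 and 372 CPM in IRV libraries, against 65.0, 56.4, 46.8 and 68.0 CPM in NV libraries. The injured libraries were all above the normal ones, with IRP replicates 1 and 2 at the 2 ends of the injured range. Cp differed on the log2 scale by 2.32 ± 0.26 in IRP against NP (adjusted p = 1.42e-05, edgeR) and 2.76 ± 0.27 in IRV against NV (adjusted p = 5.52e-06, edgeR). The Cp gene overlaps Hps3 on the other strand, which had 21 to 197 counts per library, and Spp1 overlaps Gm42793 on its own strand, which had 1 to 28. The kit was directional, with a strand setting in counting not given in the sources used here.

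Dcdc2a encodes a doublecortin-domain protein that binds microtubules. Dcdc2a (ENSMUSG00000035910.16) had 193, 88.4, 114 and 155 CPM in IRP libraries, against 26.9, 26.0, 21.7 and 21.9 CPM in NP libraries. It had 150.1, 137, 194 and 145 CPM in IRV libraries, against 30.8, 25.8, 17.1 and 15.4 CPM in NV libraries. Groups did not overlap. The log2 difference was 2.51 ± 0.25 in IRP against NP (adjusted p = 7.09e-06, edgeR) and 2.82 ± 0.25 in IRV against NV (adjusted p = 5.15e-06, edgeR). In IRV against NV it ranked 7 of 13614 genes by p-value.

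Of the 3 other surface molecules, VCAM-1, CD44 and Fn14, Vcam1 had the largest differences. VCAM-1 binds the integrin of leukocytes that carries the alpha 4 chain. Vcam1 (ENSMUSG00000027962.15) had 285, 81.7, 147 and 162 CPM in IRP libraries, against 17.3, 22.3, 13.05 and 16.4 CPM in NP libraries. It had 169.6, 115, 261 and 207 CPM in IRV libraries, against 21.4, 15.3, 18.9 and 13.9 CPM in NV libraries. The injured libraries spread widely but all lay above the normal ones. Vcam1 differed on the log2 scale by 3.27 ± 0.36 in IRP against NP (adjusted p = 1.31e-05, edgeR) and 3.45 ± 0.36 in IRV against NV (adjusted p = 1.02e-05, edgeR). CD44 is the main cell surface receptor for hyaluronan. Cd44 (ENSMUSG00000005087.18) had 61.0, 20.1, 38.03 and 40.9 CPM in IRP libraries, against 22.1, 8.18, 22.8 and 15.6 CPM in NP libraries. It had 75.0, 28.6, 57.4 and 47.3 CPM in IRV libraries, against 15.4, 12.4, 18.9 and 13.9 CPM in NV libraries. IRP replicate 2 fell below NP replicates 1 and 3, so the IRP and NP libraries overlapped, while the IRV and NV libraries did not. The log2 difference was 1.27 ± 0.36 in IRP against NP (adjusted p = 0.00884, edgeR) and 1.76 ± 0.37 in IRV against NV (adjusted p = 0.00218, edgeR).

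Fn14, the receptor of the cytokine TWEAK, was counted at 43 to 120 reads per IRP library and 12 to 111 per IRV library and had the smallest difference of the 9 in IRV against NV. Tnfrsf12a (ENSMUSG00000023905.16) had 14.5, 7.79, 11.5 and 14.4 CPM in IRP libraries, against 3.84, 6.69, 3.26 and 3.90 CPM in NP libraries. It had 12.3, 13.98, 14.8 and 14.2 CPM in IRV libraries, against 2.56, 11.5, 6.30 and 5.41 CPM in NV libraries. The groups did not overlap, but the highest NV library and the lowest IRV library were close. Its log2 difference was 1.405 ± 0.35 in IRP against NP (adjusted p = 0.00363, edgeR) and 1.14 ± 0.33 in IRV against NV (adjusted p = 0.0176, edgeR). Its 3 to 9 counts in NP libraries and 3 to 12 in NV libraries were at or below the receptor genes' 90th percentile in 8 of 8 normal libraries, whereas this held for Cd44 in 1 of 8 and for Spp1, Clu, Cp, Dcdc2a and Vcam1 in 0 of 8. The limma-voom adjusted p of Tnfrsf12a was 0.115 in IRP against NP and 0.0658 in IRV against NV. Leaving out IRV replicate 3, NV replicate 1 or NV replicate 4 each ended its call in IRV against NV. Without NV replicate 1 its log2 difference was 0.81 and its adjusted p 0.0717 by edgeR.

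**Figure D2:**
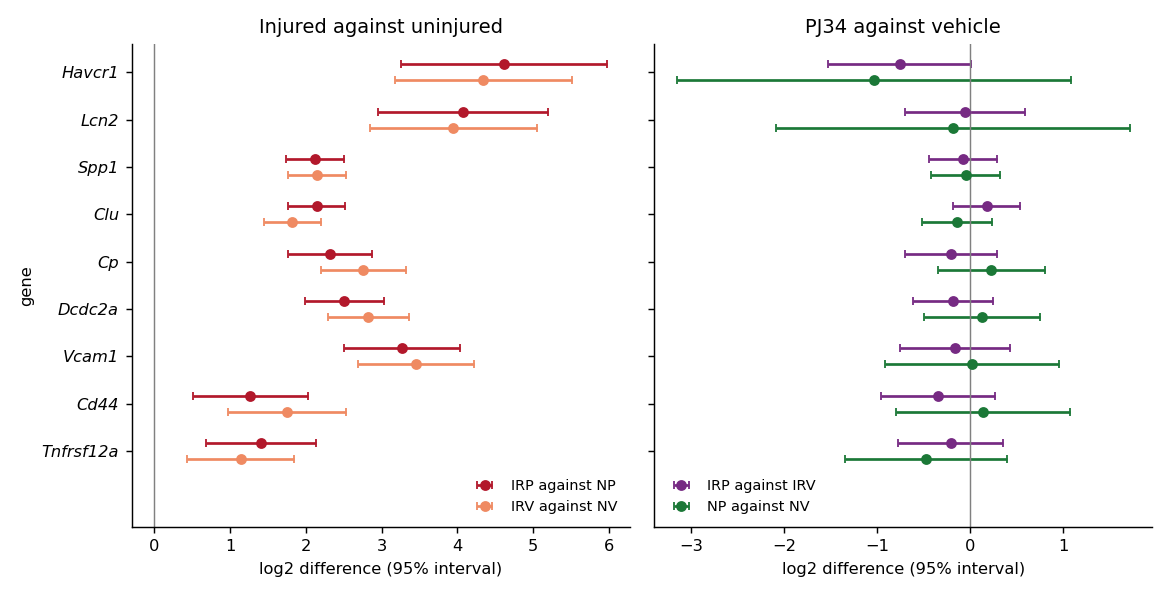
Log2 differences of the 9 genes with 95% intervals from the fit across all genes, for injured against normal kidney (left: IRP against NP above IRV against NV) and for PJ34 against vehicle (right: IRP against IRV above NP against NV). Every injury interval lies above 0, the lowest bound being 0.43 for Tnfrsf12a in IRV against NV, and every PJ34 interval includes 0.

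A term for the library set in the fit ended calls for 2 of the 9 genes. With the set as a term, 7 of 9 remained called in IRP against NP and 8 of 9 in IRV against NV. The genes past the threshold there came to 343 higher and 107 lower in IRP against NP, 2.52% and 0.786% of those tested, and to 1080 higher and 835 lower in IRV against NV, 7.93% and 6.13%. In IRP against NP, Cd44 had a log2 difference of 1.19 ± 0.55 (SE, adjusted p = 0.27, edgeR), against 1.27 ± 0.36 without the term. Tnfrsf12a had 1.28 ± 0.52 (adjusted p = 0.204, edgeR) in IRP against NP, against 1.405 ± 0.35 without the term. In IRV against NV, Tnfrsf12a had 1.07 ± 0.43 (adjusted p = 0.104, edgeR), against 1.14 ± 0.33 without the term. The estimates thus moved little while their standard errors grew. No IRP library is shallow and no NP library is deep, so in IRP against NP the term rests on the IRV libraries alone. When IRV replicates 1 and 2 alone were set against NV, all being shallow, 8 of 9 genes were called, where 6.58% of the 12892 genes tested rose and 6.83% fell. There Havcr1 differed by 4.09, Vcam1 by 3.00, Spp1 by 1.99 and Clu by 1.62 on the log2 scale, and Tnfrsf12a by 1.05 (adjusted p = 0.193, edgeR). Shallow libraries alone therefore gave Spp1, Clu, Cp, Dcdc2a, Vcam1, Havcr1, Lcn2 and Cd44 the same direction and call as all libraries did.

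**Figure D3:**
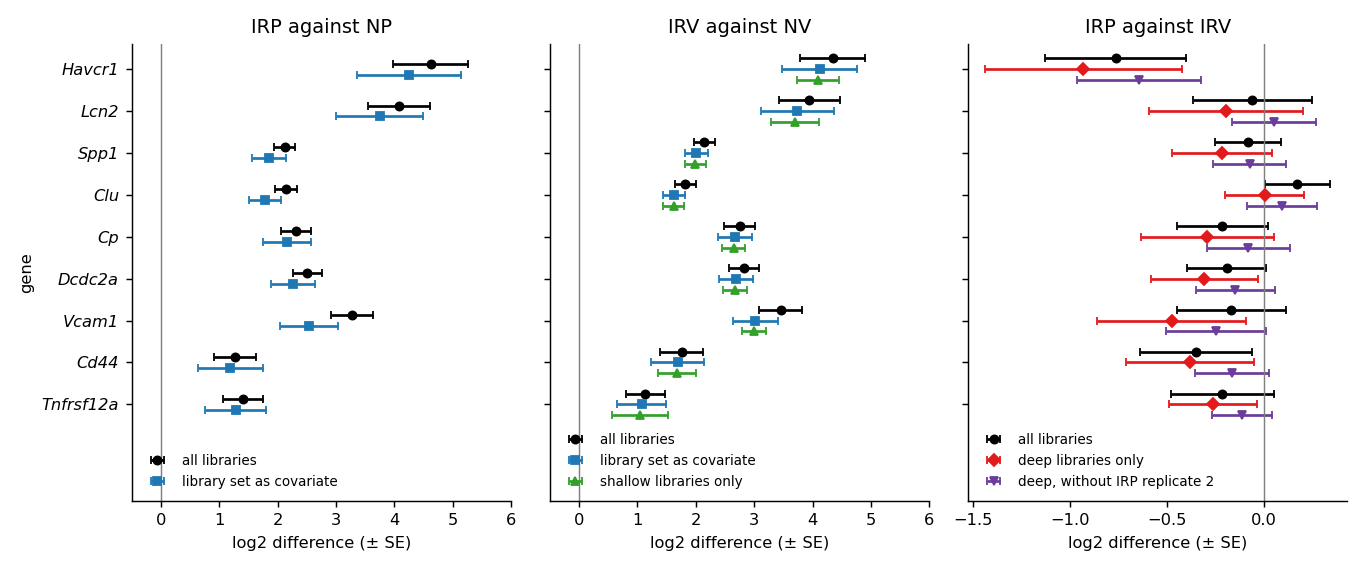
Log2 differences (± SE) of the 9 genes in all libraries (circles), with the library set as a covariate (squares), in the shallow libraries (upward triangles), in the deep libraries (diamonds) and in the deep libraries without IRP replicate 2 (downward triangles). In IRP against NP and IRV against NV every estimate is above 0; in IRP against IRV, Havcr1 runs from -0.93 in the deep libraries to -0.64 when IRP replicate 2 is also left out.

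PJ34 after injury moved none of the 9 genes past the threshold. In IRP against IRV 0 of 9 were called by edgeR, as were 0% of all 13614 genes. Unadjusted p-values were under 0.05 for 1832 genes, none of them among the 9. DESeq2 called 5 genes higher and 1277 lower, again with none of the 9. All IRP libraries are deep, whereas IRV replicates 1 and 2 are shallow, so treatment and library set partly coincide here. With the set as a term, and within the deep libraries, edgeR called 0 genes higher and 0 lower. DESeq2 was not run in either setting. Groups of IRP and IRV libraries overlapped for all 9 genes, where 1.51% of all genes tested were higher and 1.92% lower without overlap. Havcr1 had the largest difference, with 65.2 ± 41.5 CPM in IRP libraries and 110.5 ± 24.2 CPM in IRV libraries (SD, n = 4 each). Its log2 difference was -0.76, with a 95% interval of -1.53 to 0.00 and an adjusted p of 0.377 by edgeR. Without IRP replicate 1 the difference was -1.18, and without IRP replicate 2 it was -0.51. Lcn2 averaged 45.0 ± 21.5 CPM in IRP libraries and 46.1 ± 6.92 CPM in IRV libraries (SD, n = 4 each), a log2 difference of -0.06 with an interval of -0.71 to 0.59.

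Among the 9 genes, Spp1 and Clu had the narrowest intervals. Spp1 averaged 2293 ± 629 CPM in IRP libraries and 2425 ± 292 CPM in IRV libraries (SD, n = 4 each), and its interval of -0.44 to 0.28 corresponds to 0.735 to 1.22 times the IRV level. Clu averaged 635 ± 141 CPM in IRP libraries and 562 ± 85.0 CPM in IRV libraries (SD, n = 4 each), with an interval of -0.18 to 0.53, or 0.881 to 1.45 times. The intervals of the other genes were -0.71 to 0.28 for Cp, -0.62 to 0.24 for Dcdc2a, -0.76 to 0.43 for Vcam1, -0.96 to 0.26 for Cd44 and -0.78 to 0.35 for Tnfrsf12a. The point estimate was below 0 for 8 genes and above 0 for Clu. With the library set as a term, no sign changed and 0 of 9 were called. Clu was then at 0.0080, Spp1 at -0.21, Vcam1 at -0.47 and Havcr1 at -0.92. The intervals, which come from the fit without the set, do not show that the groups are alike. They bound the change only at this depth and spread.

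In normal kidney, PJ34 likewise moved none of the 9 past the threshold. Havcr1, Lcn2 and Tnfrsf12a entered this test only because the injured libraries carried them past the filter on low counts. In NP against NV 0 of 9 were called by edgeR, against 0% of all genes tested, with 501 genes and none of the 9 at an unadjusted p under 0.05, and DESeq2 called 3 genes higher and 1 lower. Havcr1 averaged 2.74 ± 1.37 CPM in NP libraries and 5.63 ± 4.22 CPM in NV libraries (SD, n = 4 each), both within the low counts described above. Its interval ran from -3.16 to 1.08 on the log2 scale, or 0.112 to 2.11 times the NV level. A several-fold decrease thus lay within the interval at these counts and this spread. Spp1 averaged 528 ± 32.2 CPM in NP libraries and 548 ± 63.4 CPM in NV libraries, with an interval of -0.42 to 0.32. The interaction, which asks whether the injury difference depended on PJ34, called 0 of 9 and 0% of all genes by edgeR, with 1550 genes and none of the 9 at an unadjusted p under 0.05. DESeq2 called 1 gene higher and 21 lower for the interaction. The estimates ran from -0.49 for Cd44 to 0.32 for Clu.

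The 9 genes differed more among IRP libraries than among IRV libraries. The coefficient of variation was higher in IRP for 9 of 9 genes, and for 8 of 9 without IRP replicate 2. Among all 13614 genes tested it was higher in IRP for 4108, or 30.2%, and for 2650 without IRP replicate 2. In this comparison 4 deep IRP libraries face 2 deep and 2 shallow IRV libraries. For Havcr1 it was 63.6% in IRP libraries and 21.9% in IRV libraries, and for Lcn2 47.8% in IRP libraries and 15% in IRV libraries. IRP replicate 2 was the lowest of the 8 injured libraries for 8 of 9 genes and among the lowest 2 for all 9. IRP replicate 1 was the highest for 4 genes and among the highest 2 for 7, for which no share of all genes was counted. Of the 1798 genes called higher in both injury comparisons, 44.9% were lowest in IRP replicate 2. The ratio of the highest to the lowest injured library was 6.10 for Havcr1, 3.73 for Cd44, 3.52 for Lcn2 and 3.49 for Vcam1. It was 2.92 for Cp, 2.20 for Dcdc2a, 1.95 for Spp1, 1.90 for Tnfrsf12a and 1.79 for Clu. Without IRP replicate 2 the IRP mean of Havcr1 was 79.7 ± 36.3 CPM and that of Lcn2 53.7 ± 15.6 CPM (SD, n = 3 each).

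Among injured libraries, IRP replicates 1 and 2 held the extremes of summed proximal tubule, loop of Henle and distal tubule, macrophage and fibroblast markers. In IRP replicate 2 the 10 proximal tubule markers summed to 18900 CPM, against 8932 to 13770 CPM in the other injured libraries. Its 11 macrophage markers summed to 469.1 CPM, against 621.8 to 1221 CPM, and its 8 fibroblast markers to 931.6 CPM, against 1315 to 2454 CPM. IRP replicate 1, the library with the highest Lcn2, Spp1, Cp and Vcam1, had the lowest proximal tubule sum and the highest macrophage and fibroblast sums. Loop of Henle and distal tubule markers summed to 4755 CPM in IRP replicate 2 and 1882 CPM in IRP replicate 1, against 2213 to 3976 CPM in the other injured libraries. IRV replicate 4, the library with the highest Havcr1, was at neither end. Its sums were 13110 CPM for proximal tubule, 817.2 CPM for macrophage and 1530 CPM for fibroblast markers. Podocyte and endothelium sums did not have their extremes in IRP replicates 1 and 2. Podocyte sums were 739.4 CPM in IRP replicate 2 and 750.6 CPM in IRP replicate 1, within the IRV range of 603.5 to 914.8 CPM. Endothelium sums were 314.9 and 312.3 CPM in these libraries, within the IRV range of 275.9 to 372.5 CPM. The part of these cells in the levels of the 9 genes was not tested, and in bulk tissue fewer cells of a type and less RNA per cell cannot be told apart.

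**Figure D4:**
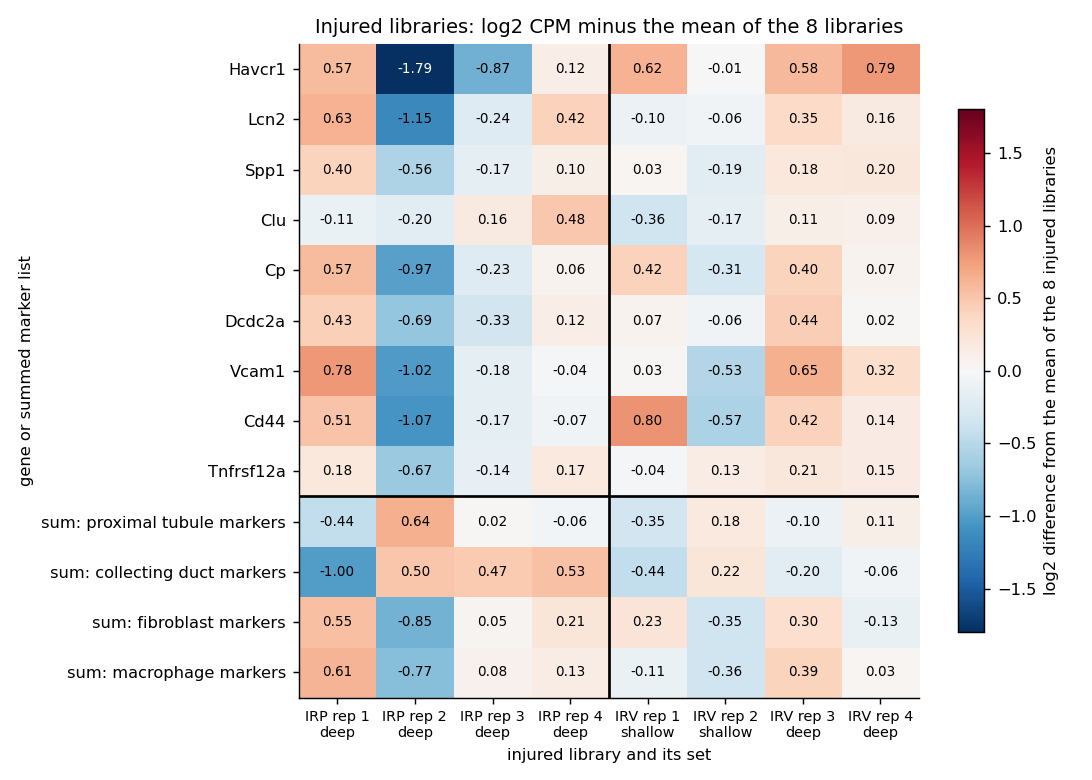
Log2 CPM of each of the 9 genes, and of summed marker lists below the line, in each injured library minus the mean of the 8 injured libraries (red: above, blue: below), with IRP libraries left of IRV libraries. IRP replicate 2 is below the mean for all 9 genes, from -1.79 for Havcr1 to -0.20 for Clu, while its proximal tubule sum is above the mean.

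Levels of the same markers also differed between injured and normal kidney. In both IRP against NP and IRV against NV, 10 of 10 macrophage markers tested rose, with sums of 469.1 to 1221 CPM in IRP, 621.8 to 1052 CPM in IRV, 86.48 to 163.1 CPM in NP and 88.94 to 121.4 CPM in NV libraries. None of the macrophage or fibroblast markers was at 0 throughout a group. Of 8 fibroblast markers, 6 rose in both comparisons, with sums of 931.6 to 2454 CPM in IRP, 1315 to 2072 CPM in IRV, 270.8 to 404.5 CPM in NP and 171.2 to 353.1 CPM in NV libraries. Of 10 proximal tubule markers, 9 fell in both comparisons, with sums of 8932 to 18900 CPM in IRP, 9523 to 13770 CPM in IRV, 18270 to 24300 CPM in NP and 19840 to 20650 CPM in NV libraries. The proximal tubule sum of IRP replicate 2, at 18900 CPM, lay above those of NP replicates 1 and 3. With the library set as a term, 6 of 10 macrophage markers and 6 of 8 fibroblast markers rose and 1 of 10 proximal tubule markers fell in IRP against NP, while in IRV against NV 9 of 10 and 6 of 8 rose and 9 of 10 fell. Of podocyte markers, 5 of 5 rose in both comparisons. Of 7 endothelium markers, 4 rose in IRP against NP and 3 in IRV against NV. With the library set as a term, 1 of 5 podocyte and 0 of 7 endothelium markers rose in IRP against NP. In IRV against NV 5 of 5 and 0 of 7 then rose. Neutrophils also hold NGAL. The sum of 7 neutrophil markers followed the library set. It was 4.892 to 12.08 CPM in IRP libraries, 10.79 and 6.65 CPM in IRV replicates 3 and 4 and 32.89 and 35.25 CPM in IRV replicates 1 and 2, against 26.04 to 41.39 CPM in NP and 25.65 to 46.86 CPM in NV libraries. In the IRP libraries, where Lcn2 had 105 to 554 counts, Csf3r had 19 to 70 counts, S100a8 0 to 6, S100a9 0 to 12, Cxcr2 0 to 8, Ltf 4 to 8, Retnlg 0 to 2 and Ly6g 0. Of the 3 tested, Csf3r rose and Cxcr2 and Ltf fell in IRP against NP, none of the 3 was called in IRV against NV, and none was called in either comparison with the library set as a term. In the NP and NV libraries these markers had 0 to 16 counts each, near the receptor genes' mean of 4.53 to 6.23. The part of neutrophils in the Lcn2 level was not tested.

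The profiles nearest to each of 4 genes over the 16 libraries were found among 11948 named genes, by the root-mean-square distance between log2 CPM profiles centred on their own mean. The genes nearest to Havcr1 were Cd14 at 0.809, Mpeg1 at 0.813 and Ctss at 0.858. Those nearest to Lcn2 were Lyz2 at 0.414, Mpeg1 at 0.617 and H2-Eb1 at 0.633. Cd14 is a receptor for bacterial lipopolysaccharide, and Mpeg1, Ctss and Lyz2 are genes of macrophages, Ctss and Lyz2 being on the macrophage list above. Profiles were centred but not scaled, so the distance also reflects the size of the injury difference. The cell source of Havcr1 and Lcn2 was not tested. For Spp1 the nearest were Sytl2 at 0.16, Sparc at 0.187 and Dtx4 at 0.189, and for Clu they were Txnip at 0.226, Cd24a at 0.227 and Sparc at 0.257. The nearest profiles lay closer to Spp1 and Clu than to Havcr1 and Lcn2, the genes with at most 11 counts in a normal library. Among the 9 genes themselves, Spp1 and Clu were nearest to each other, at 0.265, followed by Cp and Dcdc2a at 0.273. These distances describe these 16 libraries, which share their injury and depth groups.

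Most other listed genes of the same injury response rose with the 9. This list and those below were also chosen with earlier results of these data known. Over all genes tested, 19.6% rose and 24% fell in IRP against NP, and 15.9% rose and 11.1% fell in IRV against NV. Of 27 tested genes on a list of other tubular injury genes, 20 rose and 1 fell in IRP against NP, with a median log2 difference of 1.63, and 20 rose and 0 fell in IRV against NV, with a median of 1.60. Cd24a, a surface protein of progenitor-like tubular cells, differed by 1.70 ± 0.14 (SE) in IRP against NP and 1.72 ± 0.14 in IRV against NV. Anxa2, a membrane-binding annexin, differed by 2.25 ± 0.23 in IRP against NP and 2.53 ± 0.24 in IRV against NV. Vim, the intermediate filament vimentin, differed by 2.03 ± 0.21 in IRP against NP and 2.13 ± 0.22 in IRV against NV, and Sox4, a transcription factor, by 2.13 ± 0.27 in IRP against NP and 2.17 ± 0.27 in IRV against NV. The gene that fell in IRP against NP was the integrin chain Itgb8, at -0.35 ± 0.12, named after its value was seen. With the library set as a term, 4 of the 27 rose in IRP against NP and 12 in IRV against NV.

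Receptors and bridging proteins that, like KIM-1, take part in the uptake of dying cells were mixed. Of 9 tested, 5 rose and 1 fell in IRP against NP, and 5 rose and 0 fell in IRV against NV. Axl, a receptor tyrosine kinase, differed by 2.37 ± 0.27 in IRP against NP and 2.66 ± 0.28 in IRV against NV. Pros1, the bridging protein S, differed by 1.79 ± 0.25 in IRP against NP and 1.63 ± 0.25 in IRV against NV. Stab1, a scavenger receptor, differed by 1.45 ± 0.22 in IRP against NP and 1.82 ± 0.24 in IRV against NV, and Mfge8, another bridging protein, by 0.91 ± 0.22 in IRP against NP and 0.86 ± 0.22 in IRV against NV. The gene that fell in IRP against NP was Stab2, a scavenger receptor, at -1.33 ± 0.28, named after its value was seen. The receptors that take up filtered NGAL ran the other way. Of 3 tested, 0 rose and 2 fell in each comparison. The 2 that fell, Cubn and Lrp2, are also on the proximal tubule list, of which 9 of 10 fell in each comparison, with a median log2 difference of -0.87 in IRP against NP and -0.99 in IRV against NV. Cubn (cubilin) differed by -0.93 ± 0.21 in IRP against NP and -1.04 ± 0.21 in IRV against NV, and Lrp2 (megalin) by -0.95 ± 0.20 in each. Slc22a17, described as an NGAL receptor, differed by -0.13 ± 0.27 in IRP against NP and 0.19 ± 0.29 in IRV against NV and did not pass the test.

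Integrins that bind osteopontin were mostly higher after injury. Of 8 tested, 7 rose in IRP against NP and 5 in IRV against NV, and 0 fell in each. Itgb5 differed by 1.26 ± 0.20 in IRP against NP and 1.17 ± 0.20 in IRV against NV, and Itga9 by 1.31 ± 0.21 in IRP against NP and 1.15 ± 0.21 in IRV against NV. Itgav differed by 0.73 ± 0.13 in IRP against NP and 0.90 ± 0.13 in IRV against NV, and Itgb1, which also pairs in the VCAM-1 receptor, by 0.83 ± 0.13 in IRP against NP and 0.86 ± 0.13 in IRV against NV. Of 2 clusterin receptors tested, 1 fell in IRP against NP and 2 in IRV against NV. These were Lrp2, given above, and Vldlr, at -0.15 ± 0.10 in IRP against NP, which did not pass, and -0.32 ± 0.10 in IRV against NV. Of 5 partners of ceruloplasmin in iron and copper handling, 0 rose and 1 fell in IRP against NP, and 2 rose and 2 fell in IRV against NV. Of all genes tested, 24% fell in IRP against NP, and 15.9% rose and 11.1% fell in IRV against NV. Counts out of 5 are too small to be set apart from these shares. Tfrc, the transferrin receptor, differed by -1.57 ± 0.21 in IRP against NP and -1.14 ± 0.22 in IRV against NV. Slc40a1, the iron exporter ferroportin, differed by 0.16 ± 0.15 in IRP against NP and 0.55 ± 0.16 in IRV against NV, and Heph, a ceruloplasmin relative, by 0.30 ± 0.20 in IRP against NP and 0.58 ± 0.21 in IRV against NV. Slc11a2, an iron importer, differed by 0.0092 ± 0.13 in IRP against NP and -0.40 ± 0.13 in IRV against NV.

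All 5 tested partners of VCAM-1 and other leukocyte adhesion genes rose in both comparisons. Icam1, a ligand of leukocyte integrins, differed by 2.00 ± 0.27 in IRP against NP and 2.04 ± 0.27 in IRV against NV. Itgb2, a leukocyte integrin chain, differed by 2.16 ± 0.36 in IRP against NP and 2.24 ± 0.39 in IRV against NV, and Itgb7 by 1.75 ± 0.52 in IRP against NP and 3.26 ± 0.65 in IRV against NV. For CD44, 1 of 6 tested genes of hyaluronan turnover and cytoskeletal linkage rose in IRP against NP and 2 in IRV against NV. These counts are too small to be set apart from the 19.6% and 15.9% of all genes tested that rose. Msn (moesin, which ties CD44 to actin) differed by 1.13 ± 0.17 in IRP against NP and 1.31 ± 0.17 in IRV against NV. Hyal1, a hyaluronidase, differed by 0.58 ± 0.34 in IRP against NP, which did not pass, and 1.67 ± 0.38 in IRV against NV.

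On the list of TWEAK and Fn14 signalling, which holds the ligand and the scavenger receptor Cd163 beside the genes downstream of Fn14, 11 of 13 tested genes rose and 1 fell in IRP against NP, and 9 rose and 0 fell in IRV against NV. Relb and Nfkb2, subunits of the non-canonical NF-kB pathway, differed by 3.03 ± 0.42 and 1.90 ± 0.28 in IRP against NP and by 3.04 ± 0.40 and 2.37 ± 0.30 in IRV against NV. Birc3 and Birc2, ubiquitin ligases that restrain this pathway, differed by 2.02 ± 0.31 and 1.00 ± 0.23 in IRP against NP and by 1.85 ± 0.31 and 1.33 ± 0.24 in IRV against NV. Tnfsf12, which encodes TWEAK itself, differed by 0.60 ± 0.23 in IRP against NP (adjusted p = 0.0444, edgeR) and 0.60 ± 0.24 in IRV against NV (adjusted p = 0.0705, edgeR). The gene that fell in IRP against NP was Cd163, a scavenger receptor reported to bind TWEAK, at -1.87 ± 0.50, named after its value was seen. Several of these genes are expressed by macrophages, whose markers rose as given above, and the part of those cells was not tested.

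The depth sets also touched these lists. With the set as a term, 2.52% of all genes tested rose and 0.786% fell in IRP against NP. In IRV against NV 7.93% rose and 6.13% fell. The counts that then rose in IRP against NP were 2 of 9 genes of dying-cell uptake, 0 of 8 osteopontin integrins, 1 of 5 adhesion genes and 1 of 13 TWEAK genes. In IRV against NV they were 3 of 9, 4 of 8, 4 of 5 and 5 of 13. The CD44 list then had 0 of 6 rise in IRP against NP and 2 of 6 in IRV against NV. Of the NGAL uptake receptors 0 of 3 fell in IRP against NP and 2 of 3 in IRV against NV, and of the clusterin receptors 0 of 2 and 1 of 2. Of the 5 ceruloplasmin partners 0 were called in IRP against NP, and 1 fell and 0 rose in IRV against NV. In IRP against NP, where the term rests on the IRV libraries alone, median log2 differences moved unevenly. They went from 0.78 to 0.68 for integrins, 1.05 to 0.86 for TWEAK genes and -0.93 to -1.04 for NGAL uptake receptors. They went from 0.91 to 0.45 for dying-cell uptake, 1.75 to 1.08 for adhesion genes and 1.63 to 1.06 for other injury genes. In IRP against IRV and in NP against NV, 0 genes of any of the 9 other lists were called by edgeR.

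**Figure D5:**
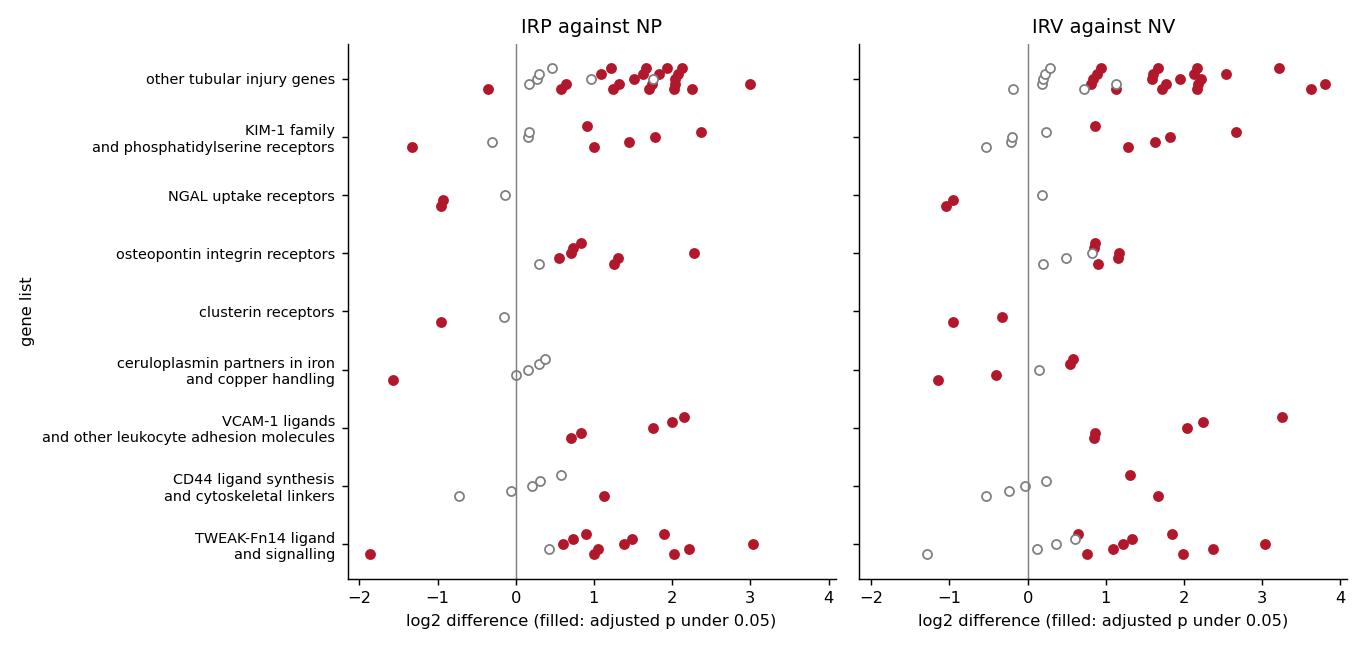
Log2 differences of every tested gene on the 9 other lists, in IRP against NP (left) and IRV against NV (right), filled where the adjusted p was under 0.05. Injury genes, integrins, adhesion genes and TWEAK genes lie mostly right of 0, and the NGAL uptake and clusterin receptors that passed the test lie left of it, down to -1.04 for Cubn in IRV against NV.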

How the data were processed

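Poly(A) RNA of mouse kidney was sequenced in 16 libraries, 4 per group. The authors' deposited table holds expected counts (estimated counts) per gene as whole numbers, so rounding changed 0 values. Salmon 1.3.0, DESeq2 1.30.1, Trim Galore 0.6.6 and FastQC 0.11.3 were used on build GRCm39, per the submitters' processing notes. Per the labels' protocols the kit was directional, with any use of molecular identifiers in counting not given in the sources used here.

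Symbols were matched by Ensembl ID for 40276 of 40472 genes from an annotation of an older build. Genes were kept by filterByExpr of edgeR 4.0.16 (R 4.3.3; minimum count 10) and tested by its quasi-likelihood test on TMM-scaled counts. All 16 libraries entered 1 fit over 13614 genes, with Benjamini-Hochberg adjustment over all genes and a threshold of 0.05. Standard errors are those implied by the test. The 5 comparisons were IRP against NP, IRV against NV, NP against NV, IRP against IRV and the interaction of PJ34 with injury. CPM values use TMM-scaled library sizes, are not divided by gene length, and so are not compared between genes. Limma 3.58.1 (voom), DESeq2 1.42.0 and other scalings, filters and library subsets were alternatives. The fit was tested on simulated counts.

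The 9 genes, the 9 other lists and the 11 marker lists were chosen with earlier results of these data known. The text names all 9 genes, up to 4 genes per other list with the smallest p in IRV against NV, and the 3 nearest profiles of Havcr1, Lcn2, Spp1 and Clu. Replicate numbers did not pair libraries: same-numbered libraries correlated at -0.23 to 0.259 in their deviations. No pair of libraries in a group agreed within sampling noise.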

Additional observations from a re-analysis of the deposited data

Results flagged for a closer look

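A library was far from the other 3 of its group, by the gap to its nearest neighbour over the group's range, in 6 of the 80 sets of 4 libraries checked, and chance alone flags about 1 in 20. Lcn2 in NV replicate 2 was at 0 CPM, against 3.60 to 4.27 CPM in the other NV libraries. Spp1 in the same library was at 453.3 CPM, against 571.7 to 588.4 CPM in the other NV libraries. Without that library Lcn2 still differed by 3.58 and Spp1 rose in IRV against NV by log2 values of 2.03 to 2.16 whichever library was left out.

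The other 4 are sums of marker lists. The collecting duct sum was 89.78 CPM in IRP replicate 1, against 248.5 to 259.1 CPM in the other IRP libraries, and that library was highest of the injured for 4 of the 9 genes. The macrophage sum was 163.1 CPM in NP replicate 3, against 86.48 to 97.62 CPM in the other NP libraries. The T cell sum of the same library was 10.87 CPM, against 14.88 to 15.62 CPM. The erythrocyte sum was 139.6 CPM in NV replicate 3, against 108.9 to 111.1 CPM in the other NV libraries.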

How the results depend on the processing

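In IRP against NP, 238 of 243 recomputed values of the 9 genes kept direction and call, and in IRV against NV 243 of 252 did, with 0 reversed. Calls lost were those of Havcr1, Lcn2 and Tnfrsf12a by limma-voom, and of Cd44 and Tnfrsf12a as given with the library set. Tnfrsf12a also lost its call with only the compared groups fitted (1.06, adjusted p = 0.0664, edgeR). For the interaction, IRP against IRV and NP against NV, no gene of the 9 was called under any setting that tested it. The lowest adjusted p across settings was 0.437, 0.186 and 1. With only NP and NV fitted, Havcr1, Lcn2 and Tnfrsf12a did not pass the filter on low counts and were not tested. The cause of these changes was not tested. The fit within deep libraries without IRP replicate 2 was chosen after seeing the data.

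Counts over all genes moved as follows. DESeq2 called 5 higher and 1277 lower in IRP against IRV, 3 and 1 in NP against NV, and 1 and 21 for the interaction. Limma-voom called 3324 lower in IRV against NV. Library totals as the only scaling shifted the median of all genes to 0.57 in IRP against NP and 0.49 in IRV against NV, and called 7012 higher and 1778 lower, 5716 and 246, and 1 and 421 in IRP against IRV. Without a filter, 5805 rose and 10928 fell in IRP against NP, 600 fell in IRV against NV, 9 rose and 1084 fell in IRP against IRV, and 2 rose in NP against NV. With at least 50 counts in 4 libraries, 2112 fell in IRP against NP. With deep libraries thinned, 3 rose and 217 fell in IRP against IRV. With the set as a term, 343 rose and 107 fell in IRP against NP, and 1080 and 835 in IRV against NV. Fitting only the groups compared called 1 higher and 2 lower in NP against NV. Within shallow libraries 848 rose and 881 fell in IRV against NV. With the replicate block, 2560 rose and 3245 fell in IRP against NP and 2075 and 1600 in IRV against NV, with 9 of the 9 genes called in each. The block changed no call of the 9 genes in any comparison. Of 24 same-numbered pairs 5 correlated above 0.1, and 4 of 16 libraries correlated best with their own number.

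Leaving out each library in turn gave 1361 to 2379 higher and 1122 to 2380 lower in IRV against NV, with the lowest counts without IRV replicate 3 and the highest without IRV replicate 1. It gave 0 to 13 higher and 0 to 1451 lower in IRP against IRV, 0 to 1 higher in NP against NV, and 0 to 5 higher and 0 to 414 lower for the interaction, the largest lower counts being without IRV replicate 3.

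Signs changed only among uncalled values. In IRP against IRV, Lcn2 was 0.055 with library totals, 0.045 without a filter, 0.10 with thinning and 0.054 in deep libraries without IRP replicate 2, and Spp1 was 0.028 with library totals and 0.040 without a filter. By limma-voom Cd44 was -0.029 in NP against NV, and the interaction was -0.22 for Havcr1 and -0.086 for Lcn2. The interaction of Spp1 was 0.079 with library totals and 0.10 without a filter, and that of Lcn2 was -0.036 with the replicate block. With a library left out, IRP against IRV spanned -0.31 to 0.17 for Lcn2, -0.24 to 0.037 for Spp1 and -0.54 to 0.036 for Vcam1. NP against NV spanned -0.87 to 0.18 for Lcn2, -0.024 to 0.33 for Dcdc2a, -0.15 to 0.14 for Vcam1 and -0.025 to 0.39 for Cd44. The interaction spanned -0.18 to 0.56 for Havcr1, -0.23 to 0.80 for Lcn2, -0.19 to 0.10 for Spp1, -0.56 to 0.025 for Vcam1 and -0.14 to 0.57 for Tnfrsf12a.

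Depth limits Havcr1, Lcn2 and Tnfrsf12a most, at 0 to 12 counts in normal libraries.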
